A study of Mus musculus with 14 samples.

Results

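Growing liver tumours from mice treated with suberoylanilide hydroxamic acid (SAHA) were compared with growing liver tumours from mice given the solvent DMSO. The samples were chosen by their treatment labels: 4 tumours labelled as growing whose treatment includes SAHA, and 2 labelled as growing that received DMSO, which makes 6 of the 14 samples of the study. The other 8 samples were 4 normal livers, given phosphate citrate buffer, and 4 tumours labelled as regressing: Regress 1 and Regress 3 with TMZ alone (31 mg per kg in the protocol), Regress 2 with phosphate citrate buffer and Regress 4 with DMSO. All 14 came from male C3HeB/FeJ mice, a strain that develops liver tumours spontaneously, and all were collected at an age of 18 months. Mice were examined for tumours at 10 months and treated on 5 consecutive days of each 28-day cycle for 6 cycles. Grow 6 received SAHA alone, for which the protocol gives 100 mg per kg body weight. Grow 2, Grow 3 and Grow 4 received SAHA with temozolomide (TMZ), for which it gives 85 mg per kg SAHA and 22 mg per kg TMZ. The protocol states these doses for mice with normal liver, and they are assumed here for the tumours. Grow 1 and Grow 5 received DMSO. Since 3 of the 4 received both drugs, the parts of SAHA and TMZ cannot be told apart. The labels do not say whether any tumours came from the same mouse, so p-values measure only the spread between these samples, which may be technical.

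SAHA blocks the zinc-dependent histone deacetylases (HDACs), enzymes that remove acetyl groups from histones and other proteins, and exposed cells carry more acetylated histone. In cultured cells, HDAC inhibitors typically raise the CDK inhibitor gene Cdkn1a (p21) and the linker histone gene H1f0 and lower Ccnd1 and Myc. TMZ methylates DNA, and the repair protein encoded by Mgmt removes its most toxic lesion, which otherwise can activate p53. The time from the last injection to tissue collection is not given in the sources used here.

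Both DMSO libraries were deeper (13.39 M and 9.30 M estimated counts, M for mega) than every SAHA library (5.90 M to 7.11 M). The group means were 11.3 M and 6.31 M, and the exact two-sided permutation p over 15 splits was 0.0667, the smallest that 4 against 2 samples can give. Libraries did not group by treatment. Grow 6 correlated at r = 0.951 (Pearson, over the log2 CPM of all features tested, where CPM is a count scaled to a common library total) with both DMSO tumours, and Grow 2 at 0.955 with Grow 5. Grow 3 and Grow 4 stood apart: they correlated at 0.978 with each other and at 0.836 to 0.862 with the other growing tumours. Albumin mRNA took 3.30% and 3.16% of their counts, against 14.5% to 17.64% in the other 4 growing tumours and 2.98% to 4.95% in normal livers. Their counts were nearly those of 1 library (median chi-square 0.679 per feature, where counting noise alone gives 0.455 and other pairs of growing tumours gave 2.07 to 13.1). Results are therefore given with Grow 3 and Grow 4 and without them.

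No gene passed the test. With edgeR's quasi-likelihood test and Benjamini-Hochberg adjustment, 0 of 13147 features (0%) differed between SAHA and DMSO tumours at an adjusted p under 0.05, and 398 had an unadjusted p under 0.05, of which 304 were higher with SAHA. The same fit without Grow 3 and Grow 4 called 0 of 12840 features (0%), with 118 at an unadjusted p under 0.05. DESeq2 called 72 features, 68 of them higher with SAHA, and limma-voom called 1. Of the 67 DESeq2 calls with a gene symbol, 56 averaged over 4 times higher in Grow 3 and Grow 4 than in Grow 2 and Grow 6. In 40 of the 67 the groups did not overlap. The 67 included genes best known from the lining of the intestine, such as Reg3b, Reg3g, Zg16 and Sis. These had 0 counts in both DMSO tumours, and Reg3b averaged 37.8 CPM over the SAHA tumours. Which tissue their mRNA came from was not tested. The genes below are thus described by their values. Groups that do not overlap were counted against the background over all features tested: in 5.72% of features every SAHA tumour lay above both DMSO tumours, and in 5.64% every SAHA tumour lay below both. The median log2 fold change over all features was 0.01. Fold changes are SAHA minus DMSO on the log2 scale with their standard error (SE), levels are in CPM, and each gene named has an adjusted p of 1 in edgeR's test unless another value is given.

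The mRNA levels of Hdac1, Hdac2, Hdac3 and Hdac6, which encode enzymes that SAHA inhibits, overlapped between the groups. Hdac1, Hdac2 and Hdac3 encode the class I deacetylases found in nuclear corepressor complexes. Hdac1 stood at 22.2 CPM in Grow 1 and 19 in Grow 5, and at 20, 22, 23 and 24.4 CPM in Grow 2, Grow 6, Grow 3 and Grow 4. The log2 fold changes were 0.12 ± 0.24 (SE) for Hdac1, 0.22 ± 0.31 for Hdac2 and -0.18 ± 0.26 for Hdac3, and the groups overlapped for all 3. Hdac6, the cytoplasmic tubulin deacetylase, was at 7.62 and 13.3 CPM with DMSO and at 15.2, 9.60, 15.9 and 16.1 CPM in Grow 2, Grow 6, Grow 3 and Grow 4, again with overlap. Among 17 deacetylase and sirtuin genes tested, 3 lay above both DMSO tumours in every SAHA tumour (Hdac11, Sirt2 and Sirt3) and 2 below (Hdac7 and Sirt6), with a median log2 fold change of 0.22. The background was 5.72% of features above and 5.64% below. Against all 3 DMSO tumours 2 of the 17 lay above and 2 below, where the background was 2.76% and 3.09%. None of 24 corepressor complex genes separated the groups in either direction, where the background was 5.72% above and 5.64% below.

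Cdkn1a and H1f0 are the genes most often read as a sign of HDAC inhibition. GC boxes close to the transcription start, bound by Sp1-family factors, are the part of the Cdkn1a promoter through which HDAC inhibitors are known to act. The Cdkn1a promoter is shown with these boxes marked. The H1f0 promoter is shown beside it for its letters only. The sequences are RefSeq promoters of build GRCm38.p6, 250 bases before to 50 bases after a start site on the plus strand, with each GC box (GGGCGG, or CCGCCC on the other strand) in capitals.
Cdkn1a, chr17:29093519-29093818: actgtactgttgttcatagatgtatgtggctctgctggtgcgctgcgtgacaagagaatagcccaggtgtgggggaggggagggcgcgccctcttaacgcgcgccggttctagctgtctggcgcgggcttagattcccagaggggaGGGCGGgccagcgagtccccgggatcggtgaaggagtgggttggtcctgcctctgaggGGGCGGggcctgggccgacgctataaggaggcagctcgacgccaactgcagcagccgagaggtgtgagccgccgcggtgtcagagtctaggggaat
H1f0, chr15:79027962-79028261: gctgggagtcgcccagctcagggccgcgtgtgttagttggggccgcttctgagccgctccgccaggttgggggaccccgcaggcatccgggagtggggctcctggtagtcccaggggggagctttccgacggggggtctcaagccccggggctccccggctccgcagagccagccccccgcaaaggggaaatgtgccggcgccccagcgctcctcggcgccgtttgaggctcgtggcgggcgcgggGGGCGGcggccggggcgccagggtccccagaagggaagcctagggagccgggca
The Cdkn1a window holds 2 GC boxes and the H1f0 window 1, while 35.7% of the 32851 promoters in the table hold at least 1 and 19.5% hold 2 or more. A second annotated Cdkn1a start site, further upstream, has none in its window. A match is a description of the letters and not a measured site.

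Neither gene was higher with SAHA. Cdkn1a mRNA was at 55.7 CPM in Grow 1 and 22.1 in Grow 5, and at 16.9, 34.5, 17 and 19.3 CPM in Grow 2, Grow 6, Grow 3 and Grow 4. The log2 fold change was -0.83 ± 0.73, the groups overlapped, and Grow 1 had the highest value of the 6. The log2 fold change of Cdkn1a was -0.62 ± 0.94 without Grow 3 and Grow 4, and -0.04 without Grow 1. H1f0 was at 115 and 139 CPM with DMSO and at 125 to 139 CPM with SAHA, a log2 fold change of 0.06 ± 0.30. Of 21 tested genes that HDAC inhibitors raise in cultured cells, 3 lay above both DMSO tumours in every SAHA tumour, 0 lay below, and the median log2 fold change was 0.06. That median was -0.67 with all 3 DMSO tumours as the control, where 1 of the 21 (Klf6) lay above. The 3 were Cdkn2d, a CDK inhibitor, and the Krüppel-like factors Klf2 and Klf6. Klf6 was at 22.9 and 25.8 CPM with DMSO and at 38.6, 48.7, 44.8 and 51 CPM in Grow 2, Grow 6, Grow 3 and Grow 4, with a log2 fold change of 0.91 ± 0.47.

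Of 20 tested genes that these inhibitors lower in culture, 1 lay above (Myc) and 1 below (Fen1, the flap endonuclease), with a median of -0.20. Myc was at 3.52 and 3.32 CPM with DMSO and at 16.9, 5.54, 6.80 and 5.05 CPM in Grow 2, Grow 6, Grow 3 and Grow 4. Regress 4 with DMSO had 6.55 CPM of Myc, above Grow 6 and Grow 4. Ccnd1, the cyclin D gene, was at 52.4 and 38.6 CPM with DMSO and at 33.4 to 43.4 CPM with SAHA, a log2 fold change of -0.23 ± 0.45. The plot of the deacetylase, drug-response and tumour marker genes gives their levels in each tumour.

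**Figure D1:**
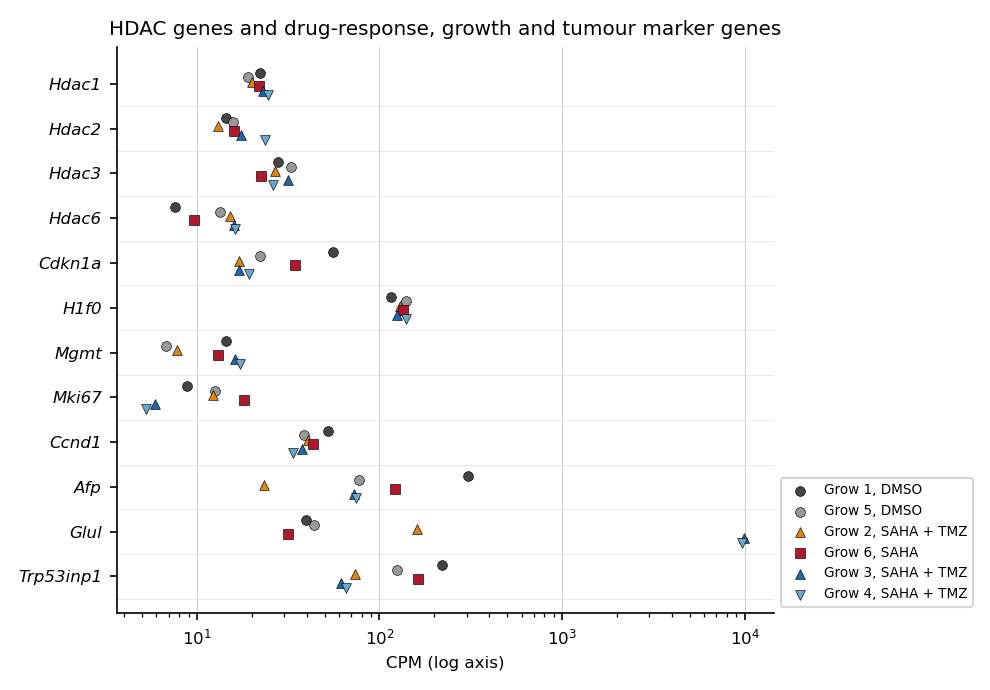
CPM (log axis) of 12 genes in each of the 6 growing tumours, 1 point per library, grey for DMSO and coloured for SAHA. Hdac1 lies between 19 and 24.4 CPM in all 6 libraries, while Glul is at 9940 and 9740 CPM in Grow 3 and Grow 4 and at or under 160 CPM in the other 4.

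Genes of the p53 and DNA repair pathways, which TMZ lesions can engage, mostly overlapped between the groups. Of 25 p53 targets tested, 0 lay above and 1 (Ei24) lay below both DMSO tumours in every SAHA tumour, and the median log2 fold change was -0.48. The spread between the DMSO tumours was wide here: 10 of the 25 were over 2-fold higher in Grow 1 than in Grow 5, and 15 were higher in Grow 1 than in any SAHA tumour. Phlda3, which restrains AKT, showed it most plainly at 30.5 CPM in Grow 1 and 3.32 in Grow 5, against 2.95 to 10.7 CPM with SAHA. Trp53inp1, a p53-induced nuclear protein gene, was at 220 and 124 CPM with DMSO and at 73.1, 162, 61.7 and 65.4 CPM in Grow 2, Grow 6, Grow 3 and Grow 4, so that only Grow 6 overlapped the DMSO range (-0.93 ± 0.45).

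Mgmt was at 14.4 and 6.76 CPM with DMSO and at 7.76, 13.1, 16.2 and 17.2 CPM in Grow 2, Grow 6, Grow 3 and Grow 4 (0.36 ± 0.58). When a DMSO tumour was left out, the log2 fold change of Mgmt was 0.98 without Grow 1 and -0.08 without Grow 5. Among 22 DNA repair genes, 2 lay below (Msh6 and Mlh3, of the mismatch repair system that TMZ toxicity depends on) and 0 above. The background below was 5.64% of all features, and against all 3 DMSO tumours 1 of the 22 lay below. Msh6 stood at 12.2 and 11.2 CPM with DMSO, at 9.31 and 9.41 CPM in Grow 2 and Grow 6, and at 5.79 and 7.29 CPM in Grow 3 and Grow 4. Its log2 fold change was -0.56 ± 0.59.

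Proliferation genes mostly overlapped as well. Mki67, the marker of cycling cells, was at 8.86 and 12.6 CPM with DMSO and at 12.3, 18.1, 5.92 and 5.29 CPM in Grow 2, Grow 6, Grow 3 and Grow 4, with a log2 fold change of -0.05 ± 1.20. Of 34 proliferation genes tested, 1 lay above (Mcm4) and 0 below, near the background share. The fetal liver protein gene Afp, a tumour marker, varied more within a group than between them: 306 and 77.7 CPM with DMSO, and 23.3, 121, 72.4 and 74.4 CPM in Grow 2, Grow 6, Grow 3 and Grow 4 (-1.40 ± 1.27). By DMSO tumour left out, the log2 fold change of Afp was -0.12 without Grow 1 and -2.07 without Grow 5.

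The 12 genes of smallest unadjusted p that lay higher in every SAHA tumour were all highest in Grow 3 and Grow 4, to very different extents. Counted against all 3 DMSO tumours, 5 of the 12 lay above in every SAHA tumour (Dmpk, Cyp4a32, Dact2, Cyp4a14 and Cyp4f15), and the other 7 did not, since Regress 4 with DMSO lay above at least 1 SAHA tumour. Dmpk, a serine/threonine kinase gene whose repeat expansion causes myotonic dystrophy, was at 4.91 and 8.25 CPM with DMSO and at 19.9, 15.7, 30.6 and 22.5 CPM in Grow 2, Grow 6, Grow 3 and Grow 4. Its log2 fold change was 1.76 ± 0.43, and 1.43 ± 0.45 without Grow 3 and Grow 4. Cyp4a32, a fatty acid hydroxylase gene, was at 5.13 and 7.91 CPM with DMSO and at 25, 22.5, 40.7 and 42.1 CPM in the same order (2.32 ± 0.60, and 1.86 ± 0.63 without Grow 3 and Grow 4). Cyp4f15, of a related family, was at 16.2 and 31.2 CPM against 50.9, 44.3, 82 and 82.3 CPM (1.46 ± 0.42). Dact2, which encodes a Dishevelled-binding protein, was at 4.47 and 4.70 CPM against 12.9, 7.20, 20.8 and 16.6 CPM (1.65 ± 0.44). Without Grow 3 and Grow 4 the log2 fold change was 1.01 ± 0.42 for Cyp4f15 and 1.12 ± 0.45 for Dact2.

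The other 8 were Cyp2e1, Acot2, Cyp2c54, Ang, Cyp2c37, Avpr1a, Cyp4a14 and Oat. Cyp2e1, the ethanol-metabolising P450 of hepatocytes around the central vein, was at 41.8 and 136 CPM with DMSO, at 1090 and 271 CPM in Grow 2 and Grow 6, and at 8890 and 9110 CPM in Grow 3 and Grow 4. The log2 fold change was 5.77 ± 1.51 with all 4 SAHA tumours and 2.94 ± 0.98 with Grow 2 and Grow 6 alone. Oat, ornithine aminotransferase, was at 8.28 and 11.6 CPM with DMSO, 84.7 and 19 CPM in Grow 2 and Grow 6, and 2420 and 2440 CPM in Grow 3 and Grow 4. Its log2 fold change went from 6.96 ± 2.00 to 2.37 ± 1.07 without Grow 3 and Grow 4. Acot2, a mitochondrial acyl-CoA thioesterase, differed less: 1.68 and 2.29 CPM with DMSO against 5.12, 4.43, 10.6 and 10.7 CPM (1.96 ± 0.52, and 1.26 ± 0.51 without Grow 3 and Grow 4). Regress 4 had 5.43 CPM of Acot2, above Grow 2 and Grow 6. For Ang (angiogenin, a secreted ribonuclease), Avpr1a (a vasopressin receptor), Cyp2c54 and Cyp4a14, the log2 fold change went from 4.18, 4.30, 7.98 and 7.63 to 1.77, 1.93, 5.71 and 3.73. Cyp4a14 was close to 0 with DMSO, and the log2 fold change of Cyp4a14 became 5.84 with a prior count of 2 in the fit. The log2 fold change of Cyp2c54 was 7.08 without Grow 1 and 9.61 without Grow 5, and the log2 fold change of Cyp2e1 was 5.13 and 6.85.

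**Figure D2:**
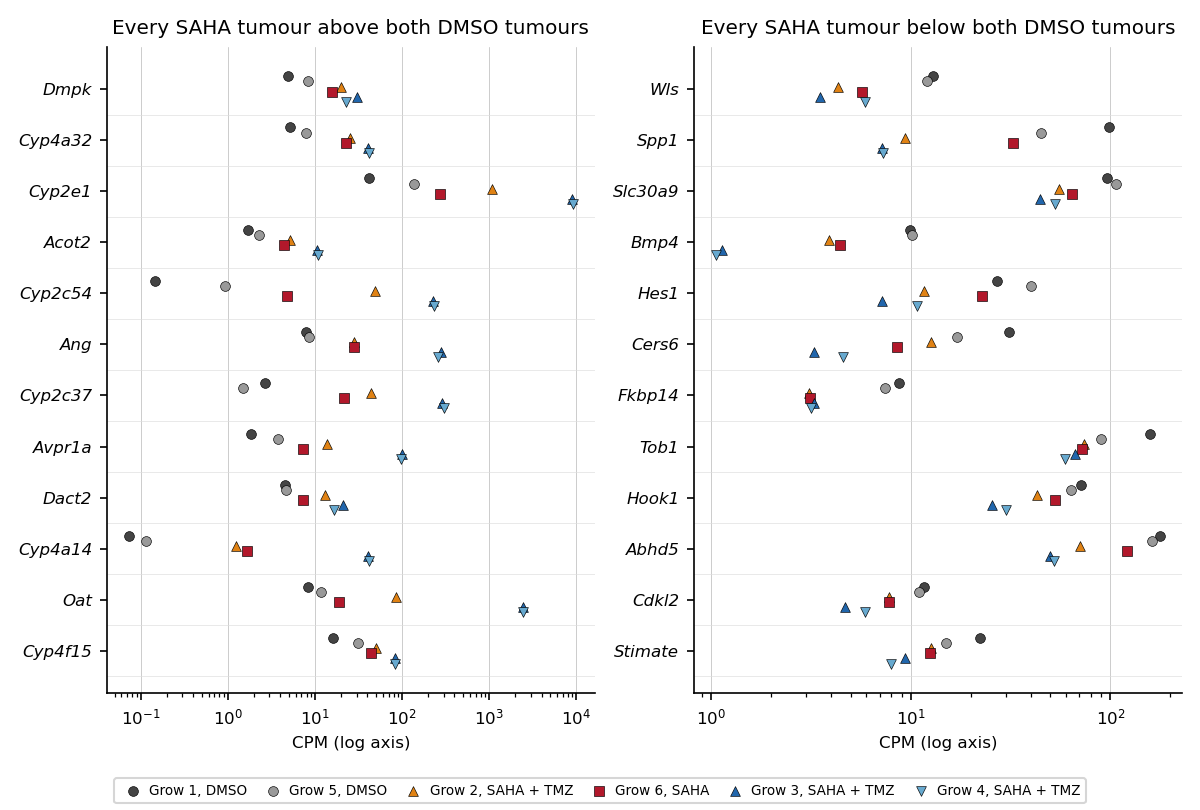
CPM (log axis) of the 24 genes of smallest unadjusted p whose values do not overlap between groups, 12 above (left) and 12 below (right), 1 point per library. Dmpk spans 15.7 to 30.6 CPM over the SAHA tumours, while Cyp2e1 spans 271 to 9110 CPM.

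The 12 genes that lay lower in every SAHA tumour had log2 fold changes between -2.35 and -0.81, and 8 of them also lay below Regress 4 in every SAHA tumour. Wls, the carrier that brings Wnt ligands to the cell surface, was at 13 and 12 CPM with DMSO and at 4.34, 5.72, 3.53 and 5.88 CPM in Grow 2, Grow 6, Grow 3 and Grow 4. The log2 fold change was -1.36 ± 0.35 and stayed at -1.32 ± 0.44 without Grow 3 and Grow 4. Bmp4, a BMP ligand, was at 9.89 and 10.1 CPM against 3.88, 4.43, 1.13 and 1.06 CPM (-1.94 ± 0.58). Hes1, a repressor gene induced by Notch, was at 27.2 and 39.9 CPM against 11.6, 22.7, 7.18 and 10.7 CPM (-1.37 ± 0.42). Without Grow 3 and Grow 4 the log2 fold change was -1.27 ± 0.54 for Bmp4 and -0.97 ± 0.46 for Hes1. Regress 4, a DMSO tumour outside the comparison, had 10.2, 8.22 and 27.6 CPM of these 3 genes. The 4 of the 12 that did not lie below Regress 4 in every SAHA tumour were Slc30a9, Cers6, Hook1 and Abhd5.

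Spp1, which encodes the secreted phosphoprotein osteopontin, was at 98.6 and 44.8 CPM with DMSO and at 9.31, 32.7, 7.18 and 7.29 CPM in Grow 2, Grow 6, Grow 3 and Grow 4 (-2.35 ± 0.62). Grow 6 came closest to the DMSO tumours. With libraries left out, the log2 fold change of Spp1 was -1.79 ± 0.70 without Grow 3 and Grow 4, -1.70 without Grow 1 and -3.18 without Grow 6. Slc30a9, a zinc transporter gene, had the smallest error of the 12, with 96.5 and 107 CPM against 55.5, 64.2, 44.3 and 53.1 CPM (-0.90 ± 0.24), but Regress 4 stood at 48.2 CPM. DESeq2 called Slc30a9 lower at an adjusted p of 0.0172, and edgeR did not (adjusted p of 1). It called no other of these 12 lower genes. Of the 12 higher genes above, DESeq2 called all but Cyp4f15, from Cyp2c54 (adjusted p 9.41e-06) to Dact2 (0.0447). DESeq2 also called other genes named in this report, among them Glul (adjusted p 0.00819) and Cyp3a41a. Cyp3a41a had the smallest adjusted p of DESeq2, 4e-08, and was at 0 counts in both DMSO tumours. The other 7 of the 12 lower genes were Cers6, Fkbp14, Tob1, Hook1, Abhd5, Cdkl2 and Stimate. Their log2 fold changes were between -1.73 and -0.81, and between -1.38 and -0.51 without Grow 3 and Grow 4. Tob1, an antiproliferative gene of the BTG/TOB family, was at 158 and 89.5 CPM with DMSO and at 59.5 to 73.5 CPM with SAHA.

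Genes of the pericentral hepatocyte programme, which Wnt/beta-catenin signalling maintains around the central vein, had the widest range. Of 19 tested, 8 lay above both DMSO tumours in every SAHA tumour and 0 below, with a median log2 fold change of 4.51. The size came from Grow 3 and Grow 4: the median was 1.18 without them. Glul, glutamine synthetase, was at 39.6 and 43.9 CPM with DMSO, at 160 and 31.4 CPM in Grow 2 and Grow 6, and at 9940 and 9740 CPM in Grow 3 and Grow 4. Grow 6 was thus below both DMSO tumours, and the log2 fold change of 6.89 ± 2.39 went to 1.18 ± 1.32 without Grow 3 and Grow 4. Axin2, the feedback inhibitor read as a direct beta-catenin target, was at 0.659 and 0.917 CPM with DMSO, 2.64 and 0.554 CPM in Grow 2 and Grow 6, and 61.2 and 56.9 CPM in Grow 3 and Grow 4.

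A high pericentral programme was also present in a tumour that received no SAHA. Regress 4, given DMSO, had 1500 CPM of Glul, 25.8 CPM of Axin2 and 1340 CPM of Cyp2e1, each above Grow 2 and Grow 6. Counted against all 3 DMSO tumours, 0 of the 19 genes lay above in every SAHA tumour, where the background was 2.76% of features above and 3.09% below. In the same 2 libraries, Grow 3 and Grow 4, urea cycle and periportal genes stood low: Cps1, the entry enzyme of the urea cycle, was at 55.7 and 50.2 CPM against 830 to 1790 CPM in the other 4 growing tumours. Summed hepatocyte markers, mostly albumin, were at 42300 and 42100 CPM in Grow 3 and Grow 4 and at 176000 to 232000 CPM in the other 4. In bulk tissue, fewer cells of a type and less RNA per cell cannot be told apart.

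**Figure D3:**
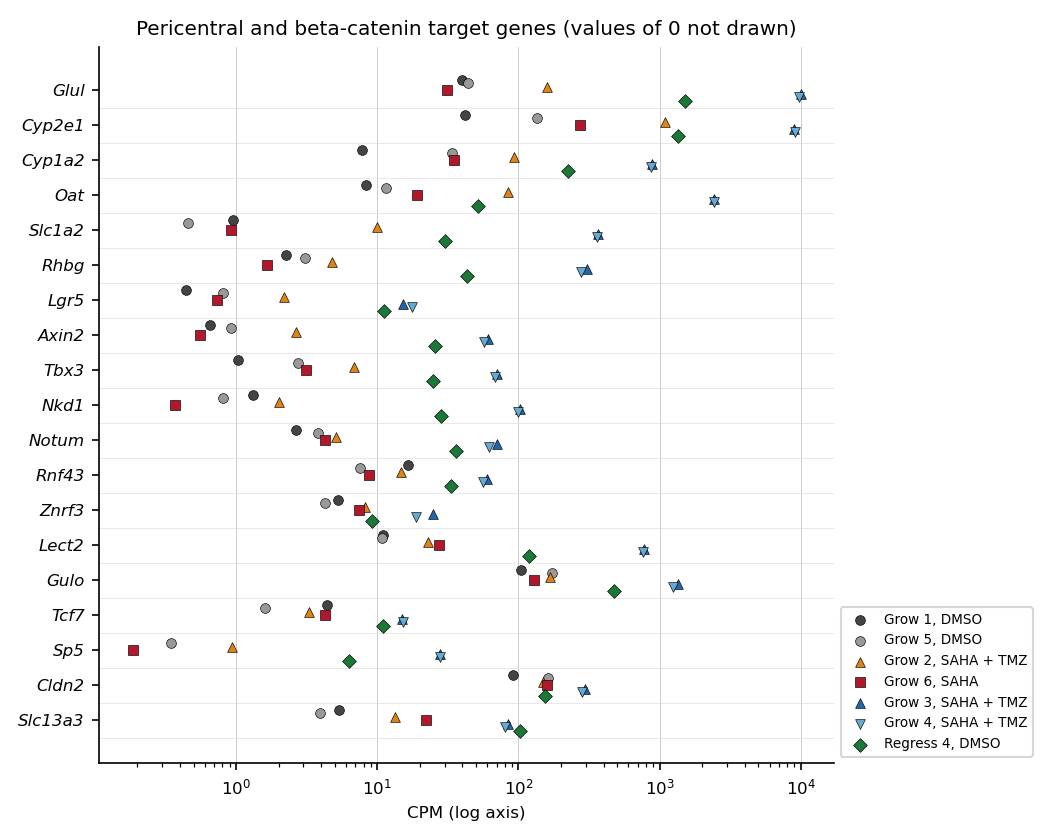
CPM (log axis) of 19 pericentral and beta-catenin target genes in the 6 growing tumours and in Regress 4, a regressing tumour given DMSO (values of 0 are not drawn). Grow 3 and Grow 4 are the highest of the 6 growing tumours for each of the 19 genes, and Regress 4 lies above Grow 2 and Grow 6 for most.

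P450 genes of families 1 to 4, which oxidise drugs, steroids and fatty acids, were higher with SAHA in more cases than the background, and this did not rest on Grow 3 and Grow 4 alone. Of 50 tested, 19 lay above both DMSO tumours in every SAHA tumour and 0 below, with a median log2 fold change of 0.97. With Grow 2 and Grow 6 alone, 21 lay above both DMSO tumours and 0 below, where the background was 14.5% of features above and 13.6% below. The DMSO tumours differed from each other too: 18 of the 50 were over 2-fold lower in Grow 1 than in Grow 5, and 2 over 2-fold higher. Against all 3 DMSO tumours 9 lay above: Cyp2b10, Cyp2d10, Cyp2d13, Cyp3a13, Cyp3a41a, Cyp3a44, Cyp4a14, Cyp4a32 and Cyp4f15. Of these, Cyp2b10 was barely detected, at 0 with DMSO and at 0.155 to 0.504 CPM with SAHA. Cyp2c37, of the epoxygenase subfamily, was at 2.64 and 1.49 CPM with DMSO, at 43.9 and 21.8 CPM in Grow 2 and Grow 6, and at 285 and 305 CPM in Grow 3 and Grow 4 (6.29 ± 1.69, and 3.94 ± 1.35 without the last 2). Cyp3a13 differed by less, with 16.8 and 16.0 CPM against 21.6, 29.7, 31.9 and 34.3 CPM (0.84 ± 0.43).

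Cyp2a4, a steroid hydroxylase, had its highest values in a DMSO tumour, with 3180 and 1640 CPM against 689, 2310, 245 and 257 CPM (-1.46 ± 1.44). Counting cannot fully separate close paralogs, so values within Cyp2c, Cyp4a, Cyp3a and Cyp2b are uncertain gene by gene. The conjugating enzymes were nearer the background in Grow 2 and Grow 6. Of 34 glutathione, glucuronide and sulfate transferase genes, 8 lay above and 1 below in every SAHA tumour, and the median went from 0.68 to 0.21 without Grow 3 and Grow 4. Nr1i3 encodes CAR, the receptor that induces several of these enzymes. It was at 13.1 and 2.75 CPM with DMSO and at 14.7, 29.2, 52.9 and 48.1 CPM in Grow 2, Grow 6, Grow 3 and Grow 4 (2.18 ± 0.98).

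Bile acid genes followed the same order. Of 19 tested, 9 lay above both DMSO tumours in every SAHA tumour and 0 below, with a median of 1.34. With Grow 2 and Grow 6 alone 10 lay above, with a median of 0.66, and against all 3 DMSO tumours 5 did. The background above was 14.5% of features for the first of these counts and 2.76% for the second. The DMSO tumours differed on this list as well, with a median log2 ratio of Grow 1 to Grow 5 of -0.84. In Grow 1, 7 of the 19 were over 2-fold lower than in Grow 5 and 2 over 2-fold higher. Cyp7a1, the rate-limiting enzyme of bile acid synthesis, was at 0.659 CPM in Grow 1, at 0 in Grow 5, at 23.7 and 0.923 CPM in Grow 2 and Grow 6, and at 136 and 141 CPM in Grow 3 and Grow 4. Normal livers had 86.6 to 550 CPM, and Regress 4 had 8.50 CPM, more than Grow 6. Cyp8b1, the sterol 12-alpha-hydroxylase that sets cholic acid output, was at 1.25 and 0.917 CPM against 83.1, 5.54, 43.1 and 42.4 CPM (5.30 ± 1.96). Among transporters, Slco1a4 was at 1.68 and 13.9 CPM against 40.3, 20.9, 34.5 and 38.7 CPM (2.13 ± 0.88). The export pump genes Abcb11 and Abcc2 overlapped between groups.

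Genes of fatty acid oxidation, many of them PPARa targets, were shifted by less. Of 24 tested, 8 lay above both DMSO tumours in every SAHA tumour and 0 below, and the median log2 fold change was 0.41 with or without Grow 3 and Grow 4. With Grow 2 and Grow 6 alone, 11 lay above, where the background was 14.5% of features. Acaa1b, a peroxisomal thiolase, was at 80.6 and 92.6 CPM with DMSO and at 136, 126, 285 and 278 CPM in Grow 2, Grow 6, Grow 3 and Grow 4 (1.25 ± 0.62). Cyp4a14, a strongly inducible PPARa target of mouse liver, was at 0.0732 and 0.115 CPM against 1.24, 1.66, 40.8 and 41.7 CPM. The receptor gene Ppara itself overlapped between groups (0.10 ± 0.54).

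Cholesterol synthesis genes lay in the other direction. Of 23 genes tested, 0 lay above both DMSO tumours in every SAHA tumour and 6 lay below (Mvk, Mvd, Lss, Cyp51, Insig1 and Stard4), with a median log2 fold change of -0.31. With Grow 2 and Grow 6 alone, 11 lay below and 0 above, and against all 3 DMSO tumours 4 lay below. The background below was 13.6% of features for the first of these counts and 3.09% for the second. Mvd, mevalonate diphosphate decarboxylase, was at 56.4 and 48.1 CPM with DMSO and at 27.9, 20.5, 38 and 35.4 CPM in Grow 2, Grow 6, Grow 3 and Grow 4 (-0.78 ± 0.40, and -1.13 ± 0.49 without the last 2).

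**Figure D4:**
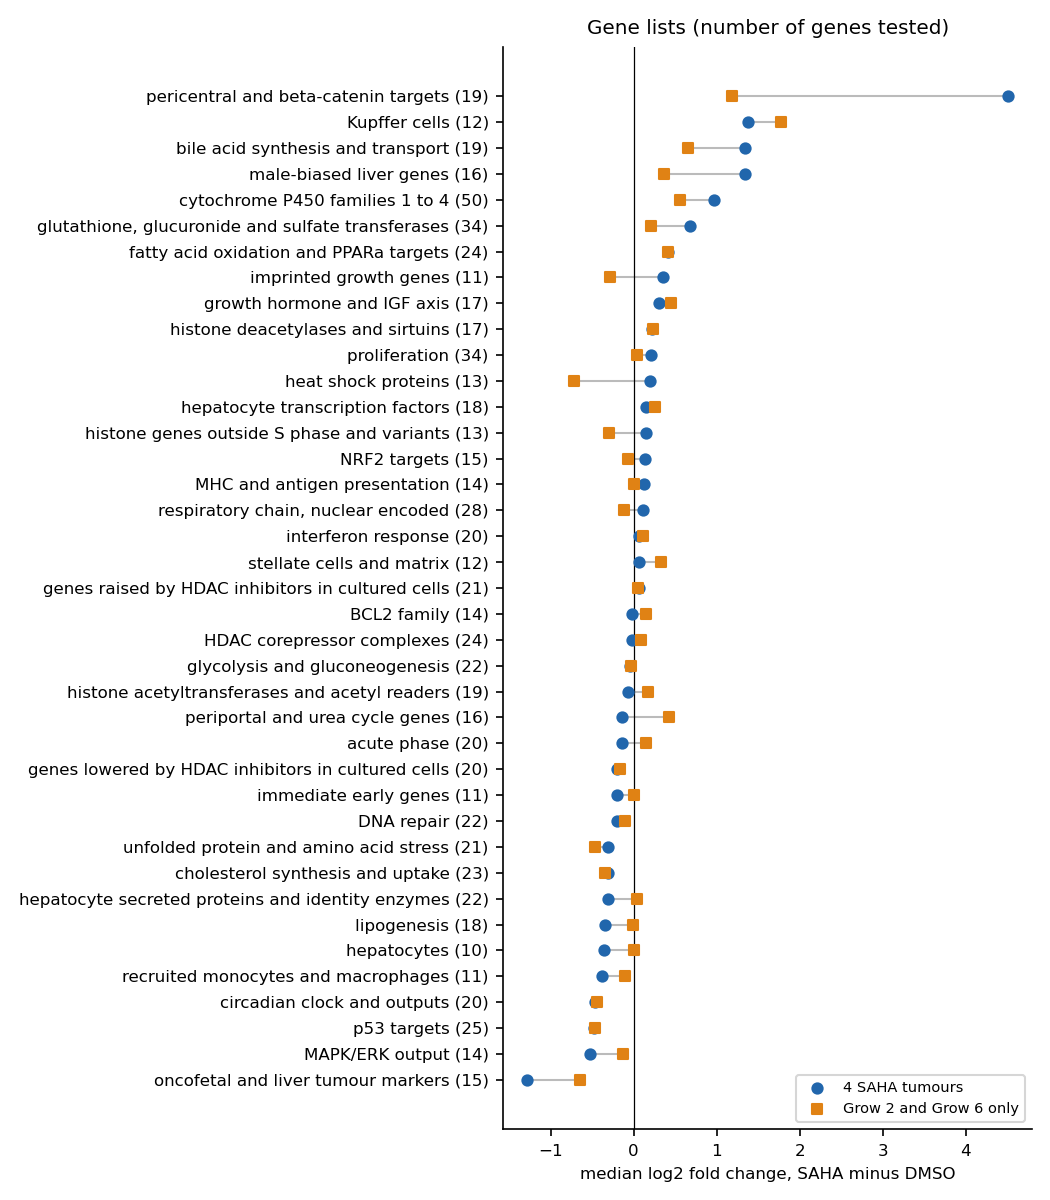
Median log2 fold change (SAHA minus DMSO) of each gene list with at least 10 genes tested, with the 4 SAHA tumours (circles) and with Grow 2 and Grow 6 only (squares). The pericentral list moves from 4.51 to 1.18 and the heat shock list from 0.20 to -0.72, while the Kupffer list stays on one side at 1.38 and 1.78.

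Markers of Kupffer cells, the resident macrophages of the liver, were the cell type list with the most members apart. Of 12 tested, 8 lay above both DMSO tumours in every SAHA tumour and 0 below, with a median log2 fold change of 1.38, and 9 lay above with Grow 2 and Grow 6 alone (median 1.78). Vsig4, the complement receptor of these cells, was at 3.66 and 10.3 CPM with DMSO and at 24.4, 28.4, 27.8 and 33.7 CPM in Grow 2, Grow 6, Grow 3 and Grow 4 (2.04 ± 0.68). Cd5l, a secreted macrophage protein, was at 14.1 and 67.3 CPM against 159, 210, 103 and 98 CPM (1.81 ± 0.76). Without Grow 3 and Grow 4 the log2 fold change was 1.93 ± 0.79 for Vsig4 and 2.20 ± 0.87 for Cd5l. Clec4f, the marker most specific to Kupffer cells in mice, overlapped: 3.66 and 14.1 CPM against 53.5, 12.2, 26.9 and 25.4 CPM. Grow 1 was the lowest library of all for this list. Against Grow 5 alone 8 of the 12 lay above in every SAHA tumour, where the background was 13% of features. Against all 3 DMSO tumours 5 of the 12 did (Vsig4, Cd5l, Timd4, Adgre1 and Folr2), where the background was 2.76% of features.

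Markers of recruited monocytes and macrophages did not go with them: of 11 tested, 0 lay above and 2 below (Ccr2 and Cx3cr1), with a median of -0.38. Their summed level was 214 and 166 CPM with DMSO and 109 to 429 CPM with SAHA. For T cells only 2 of 9 markers passed the filter on low counts, and summed levels were 0.465 to 3.27 CPM over the 6 tumours. Ductular markers were highest in Grow 1 (638 CPM summed, against 316 CPM in Grow 5 and 38.8 to 394 CPM with SAHA), mostly through Tspan8, and Spp1 was the 1 of 7 that lay below in every SAHA tumour. Sinusoidal endothelial markers summed to 192 and 217 CPM with DMSO and 113 to 346 CPM with SAHA. The part of cell composition in the differences described was not tested.

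The levels of 5 lists were set beside the tumours outside the comparison, as a description. The mean log2 CPM of the P450 list was 3.87 in Grow 1 and 4.55 in Grow 5, 4.65 in Regress 4 (DMSO) and 4.57 in Regress 2 (phosphate citrate buffer). It was 5.29, 5.17, 6.19 and 6.21 in Grow 2, Grow 6, Grow 3 and Grow 4, and 5.50 and 5.35 in the TMZ-treated Regress 1 and Regress 3. The 6 tumours given a drug, of which Grow 3 and Grow 4 had counts nearly those of 1 library, lay above the 4 given only a vehicle. Normal livers, given buffer, were high as well, at 5.33 to 6.27. Regress 1 was near normal liver in other values too, with 4.18% of its counts from albumin, 0.591 CPM of Afp and a mean log2 CPM of 0.55 for 15 oncofetal genes (0.31 to 0.96 in normal livers). The bile acid list (4.23 to 5.22 in vehicle tumours, 5.47 to 7.12 in the 6 drug-treated) and the Kupffer list (2.13 to 3.79 against 4.09 to 5.03) had the same order. The cholesterol list had the reverse order (7.28 to 7.58 against 6.73 to 7.16). Normal livers spanned 6.77 to 7.63 on the bile acid list, 4.29 to 6.02 on the Kupffer list and 5.69 to 7.11 on the cholesterol list, so the drug-treated tumours lay on the side of normal liver in all 4. Grow 1 and Grow 5 were the deepest libraries, while Regress 2 and Regress 4 had 6.09 M and 5.96 M counts, and the part of depth was not tested. The lists were picked for this after their values in the growing tumours were seen. The order of Grow 1 to Grow 6 is thus part of that choice, and only the regressing tumours add to it.

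**Figure D5:**
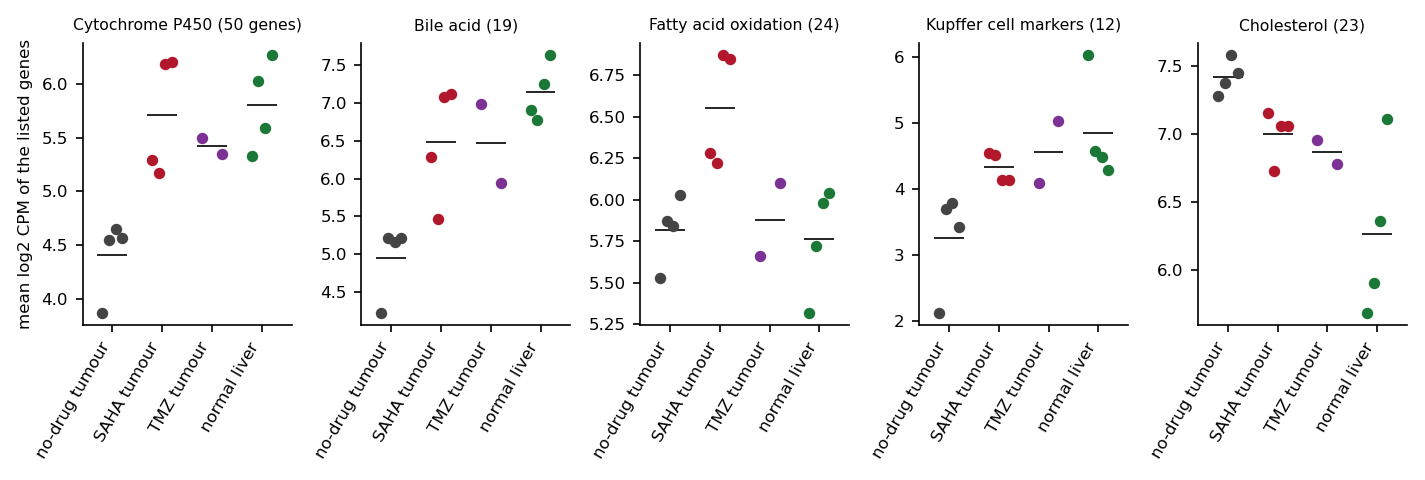
Mean log2 CPM of 5 gene lists in each library, by treatment (no drug: Grow 1, Grow 5, Regress 4, Regress 2; SAHA: Grow 2, Grow 6, Grow 3, Grow 4; TMZ: Regress 1, Regress 3; normal liver: 4 samples); bars are means. The no-drug tumours lie apart from the SAHA and TMZ tumours for 4 of the lists, and the fatty acid oxidation list overlaps.

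SAHA alone and SAHA with TMZ were given at different SAHA doses and with 1 and 3 tumours, so their values stand side by side with no comparison. For Dmpk they were 15.7 CPM with SAHA alone and 19.9, 30.6 and 22.5 CPM with both drugs. For Wls they were 5.72 CPM and 4.34, 3.53 and 5.88 CPM, and for Cdkn1a 34.5 CPM and 16.9, 17 and 19.3 CPM. Against the DMSO tumours, edgeR called 0 features with SAHA and TMZ (720 at an unadjusted p under 0.05). With SAHA alone it also called 0 (82), in a fit where that group is 1 library, assumed to vary like the other groups.

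Mtus2, a microtubule-associated protein gene chosen after its values were seen, had the smallest adjusted p of edgeR's test, 0.364. It had 73 counts in Grow 1 and 38 in Grow 5, and 0 in all 4 SAHA tumours. Against a floor of 3 counts over the SAHA group it was at least 45.8-fold lower with SAHA. DESeq2 called it (adjusted p 6.4e-05), as did limma-voom (0.047). Regressing tumours, of which only Regress 4 had DMSO, held 0 to 2 counts and normal livers 2 to 9, so the DMSO growing tumours were the high ones among all 14 libraries. Tram2, a translocon-associated gene, had 41 and 28 counts in the DMSO growing tumours and 0 in every SAHA tumour, at least 29.3-fold lower (DESeq2 adjusted p 0.00415). Regress 4 with DMSO and Regress 2 with buffer also had 0 counts, and normal livers had 7 to 22. These counts are not scaled for depth. Normal 3, with the 22, had 6.43 M counts in total, against 13.39 M in Grow 1 and 9.30 M in Grow 5. The counts therefore do not place the DMSO growing tumours above Normal 3 for Tram2.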

How the data were processed

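Messenger RNA of 14 samples was sequenced with a TruSeq RNA v2 kit, per the labels' protocols, which does not mark strand. The authors deposited 1 table of estimated counts per RefSeq transcript. Tools listed by the submitters' processing notes are edgeR 3.14.0 and Salmon 0.3.1, and the build is mm9, all without a stated role, and the version of the transcript annotation is not given in the sources used here. Beside the sample columns, the table has 1 further column, without values, which was not used.

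Of 35230 rows, 26077 were matched to symbols through RefSeq and 148 through GENCODE M21, and 9005 stayed unmatched (3.52% to 12.1% of a library's counts). Rows were summed per symbol, which gave 30436 features, and rounded. Features were filtered with filterByExpr and scaled by TMM. The main test was edgeR 4.0.16's quasi-likelihood test (R 4.3.3) with Benjamini-Hochberg adjustment at 0.05, fitted over all 14 samples in 4 groups, after it was tested on simulated data. DESeq2 1.42.0 and limma 3.58.1 were alternatives, beside other scalings, filters, controls, thinning to equal depth and leaving out each library. Depth per library, 4.71 M to 13.39 M counts, limits the precision of low genes.

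Genes named in each direction were the 12 of smallest unadjusted p whose groups did not overlap, among genes averaging 1 or more in log2 CPM, and a list of drug targets and markers. Members of gene lists were named after their values were seen. The samples and the 51 lists (833 genes, 826 matched) were chosen with earlier results of these data known. Non-overlap was counted on CPM. Some results are not reported here.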

Additional observations from a re-analysis of the deposited data

Results flagged for a closer look

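In 2 of the 38 values checked within a group of 4 samples, 1 library stood far from the others, and chance gives about 1 in 20. The values were the levels of the named genes, the library total and the albumin share. The 2 found are near the share given by chance. That share assumes independent samples, while Grow 3 and Grow 4 had counts nearly those of 1 library. For Spp1 the gap between Grow 6 (32.7 CPM) and the nearest other SAHA tumour took up 0.831 of the range of log2 CPM over the 4 SAHA tumours, of which the other 3 lay between 7.18 and 9.31 CPM. For Hdac6 that share was 0.888, with Grow 6 at 9.60 CPM and the other 3 between 15.2 and 16.1 CPM. Grow 6 is the tumour treated with SAHA alone.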

How the results depend on the processing

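edgeR called 0 features under every scaling, filter, control and left-out library tried, with 118 to 828 at an unadjusted p under 0.05 (82 with SAHA alone, an arm of 1 library). DESeq2 called 72 features (68 higher and 4 lower with SAHA) and limma-voom 1 (0 higher and 1 lower). The cause of the difference between tools was not tested. Log2 fold changes that changed sign were small or had wide errors. Without Grow 3 and Grow 4, Hdac2 was at -0.07, Mgmt at -0.05 and Mki67 at 0.50. With SAHA alone, Hdac6 was at -0.12, Mki67 at 0.75 and Glul at -0.41. With TMZ as a coefficient, Cdkn1a was at 0.07, Mgmt at -0.01, Mki67 at 1.34, Ccnd1 at 0.56 and Afp at 0.52. Mki67 was at 0.15 with Grow 3 and Grow 4 summed and at 0.07 with a length trend removed, and H1f0 was at 0 with libraries thinned. Leaving out 1 library gave -0.09 to 0.20 for H1f0, -0.08 to 0.98 for Mgmt and -0.46 to 0.22 for Mki67. The cause of these changes was not tested. List medians changed sign without Grow 3 and Grow 4 in 15 of 51 lists, among them heat shock (0.20 to -0.72), periportal (-0.14 to 0.43), imprinted (0.35 to -0.29), histone (0.15 to -0.30), acute phase (-0.14 to 0.15) and B cell genes (1.49 to -0.55). No paired analysis was possible because the 2 groups compared share no replicate numbers. With 2 DMSO tumours of unequal depth, low genes are the least certain.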

Other observations

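Genes of the growth hormone and IGF axis included members on both sides. Of 17 tested, Socs2 and Cish, feedback inhibitors induced by STAT5, lay above both DMSO tumours in every SAHA tumour, and Igfbp3, an IGF-binding protein, lay below. The background was 5.72% of features above and 5.64% below, so these counts are not read as a result about the axis. Against all 3 DMSO tumours 1 of the 17 lay above and 1 below. Cish was at 3.08 and 2.06 CPM in Grow 1 and Grow 5 and at 34, 5.72, 11 and 9.99 CPM in Grow 2, Grow 6, Grow 3 and Grow 4, with a log2 fold change of 2.54 ± 0.90. Igfbp3 was at 52.6 and 18.4 CPM against 17.7, 10.3, 15 and 16.2 CPM (-1.26 ± 0.55), and Grow 1 alone stood far above the rest.

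Among 20 circadian clock genes 2 lay below both DMSO tumours in every SAHA tumour and 0 above, against 5.64% of all features below. They were Per2 and Bhlhe40, both repressors of the clock, and of these Bhlhe40 also lay below Regress 4. Per2 was at 25 and 10.8 CPM against 7.14, 6.64, 8.94 and 9.17 CPM, while Regress 4 with DMSO had 2.51 CPM. Of the 14 MAPK/ERK output genes tested, 2 lay below (Spred1 and Etv4) and 0 above, and both also lay below Regress 4. Spred1, an inhibitor of RAS signalling, was at 27.2 and 19.9 CPM against 17.1, 16.8, 13.6 and 12.8 CPM (-0.65 ± 0.30), and Regress 4 stood at 22.3 CPM. The male-biased liver genes did not separate the groups (0 of 16 above, 0 below), and 14 of the 16 were over 2-fold lower in Grow 1 than in Grow 5. Of 9 female-biased liver genes tested, 3 lay above and 0 below, against 5.72% of all features above. Their median log2 fold change was 2.37, and 1.46 without Grow 3 and Grow 4. Against all 3 DMSO tumours 2 of the 9 lay above, where the background was 2.76%.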
